A study of Mus musculus with 9 samples.

Results

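The genes described here are 10 primitive streak and mesendoderm genes, *T* (brachyury), *Eomes*, *Mixl1*, *Gsc*, *Lhx1*, *Foxa2*, *Sox17*, *Hhex*, *Cer1* and *Fgf8*. They were chosen by name from what is known of gastrulation, with earlier results of these data known, and are 10 of the 54232 genes in the count table. The paper on these data reports *T* and *Cer1* as upregulated in primed cells, and *Eomes* and *Gsc* as expressed in them. The RNA-seq libraries came from naïve mESCs and from primed mEpiSCs, each at an early (P5) and a late (P15) passage with 2 libraries, and 1 further library came from MEFs. All cells came from a C57 x CBA background, and the naïve mESCs were a single line that carries GFP under an *Oct4* promoter fragment. Naïve mESCs grew in serum with LIF, and primed mEpiSCs were obtained by moving those mESCs to medium with bFGF and Activin A. Both states were cultured on feeder cells, which were MEFs treated with mitomycin C. The labels do not say whether the 2 libraries of a group came from separate cultures, so that p-values measure the spread between these libraries, which may be technical. The 8 pluripotent libraries held between 14378051 and 20985136 counts each, and that of MEFs 25646547. Where no count was found, a level of up to 3 counts is still possible, or 0.148 to 0.221 CPM in a pluripotent library and 0.128 CPM for MEFs. This floor covers counting error only.

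Levels are given in CPM, which correct counts for the size of the library, as scaled by TMM over the 9 libraries. A gene was called different where its adjusted p was under 0.01 (edgeR's quasi-likelihood test, two-sided, Benjamini-Hochberg adjustment over all genes tested) and its fold was at least 2. Markers of the states went with the labels. All 9 naïve pluripotency markers on the list were called lower in primed mEpiSCs at either passage, and 5 of 6 primed markers were called higher at both passages. The primed marker not called was *Dnmt3b*. It was at 293 and 289 CPM in naïve and 390 and 402 CPM in primed mEpiSC libraries at P5. At P15 it was at 301 and 298 CPM in naïve and 372 and 365 CPM in primed libraries. Of the core factors *Pou5f1*, *Sox2* and *Nanog*, 3 were called lower at P5 and 1 at P15. Over all genes tested, 13.5% were called higher and 8.85% lower at P5, and 12.2% and 11% at P15.

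At gastrulation, cells of the posterior epiblast form the primitive streak, where Nodal, Wnt and BMP signals switch on T-box and homeobox transcription factors. Cells that leave the streak become mesoderm and definitive endoderm, and its anterior end gives the node, the mouse organizer. Primed mEpiSCs correspond to the post-implantation epiblast and are kept in Activin A, which acts through the Nodal receptors, so that streak genes are often detected in them. Naïve mESCs correspond to the preimplantation epiblast, which precedes the streak.

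Promoter sequences from RefSeq (GRCm38.p6) were given for 7 of the 10 genes. The 250 bases before the transcription start are printed for *T* and *Eomes*, the T-box factors of the streak, and for *Cer1*, the gene with the highest level in primed mEpiSCs. They are written 5′ to 3′ in the direction of transcription, and capitals mark a match to one of the motifs below.

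*T*, chr17:8434173-8434422, plus strand: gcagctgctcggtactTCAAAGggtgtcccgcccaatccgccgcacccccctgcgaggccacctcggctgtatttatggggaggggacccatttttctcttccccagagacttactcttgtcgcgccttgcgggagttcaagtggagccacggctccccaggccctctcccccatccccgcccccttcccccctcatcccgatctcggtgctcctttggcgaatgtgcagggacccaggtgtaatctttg

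*Eomes*, chr9:118477939-118478188, plus strand: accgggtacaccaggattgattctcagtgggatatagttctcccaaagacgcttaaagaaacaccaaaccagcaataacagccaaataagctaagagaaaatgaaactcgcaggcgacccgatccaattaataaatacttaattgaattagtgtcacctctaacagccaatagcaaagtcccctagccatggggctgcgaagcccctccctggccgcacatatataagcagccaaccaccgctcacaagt

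*Cer1*, chr4:82885152-82885401, minus strand: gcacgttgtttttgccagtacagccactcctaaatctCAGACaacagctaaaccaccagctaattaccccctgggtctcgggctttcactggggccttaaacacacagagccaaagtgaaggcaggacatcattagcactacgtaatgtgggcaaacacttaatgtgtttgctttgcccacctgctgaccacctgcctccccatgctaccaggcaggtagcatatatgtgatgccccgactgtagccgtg

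The motifs were chosen after these sequences had been seen. They were searched on both strands, and no matches overlapped. The TCF/LEF core TCAAAG, bound by the nuclear factors of Wnt signalling, was in the *T* window at 234 bases before the start, and in 13.8% of the 32851 mouse promoter windows of the same length. The SMAD box CAGAC, bound by SMAD proteins of the Nodal and BMP pathways, was in the *Cer1* window at 213 bases before the start, in the window of *Lhx1*, and in 42.2% of all windows. The *Eomes* window held none of the motifs. TATAAA was found in 2 of the 9 windows of the 7 genes, those of *Gsc* and of 1 of the 3 *Foxa2* starts, and in 12.4% of all windows. The T-box core GGTGTGA (3.33% of all windows) and the FOXH1 core ATCCACA (2.78%) were in none of the 9 windows. A match is a stretch of letters and not a site shown to be bound.

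All 10 genes were higher in primed mEpiSCs than in naïve mESCs in every library at both passages, with no overlap between the states. Among all genes tested, 41% at P5 and 41.7% at P15 were higher in this way. *Cer1*, *T*, *Lhx1* and *Foxa2* were at 1.34 CPM or less in each naïve library and at 47.0 CPM or more in each primed library, whereas *Eomes* and *Hhex* already had several CPM in naïve mESCs. The sum of the 10 genes was 17.9 and 18.4 CPM in naïve mESCs at P5 and 14.8 to 15.1 CPM at P15. In primed mEpiSCs it was 547 and 548 CPM at P5 and 724 to 749 CPM at P15. In these bulk libraries, more cells that express a gene and more of its RNA per cell cannot be told apart.

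**Figure D1:**
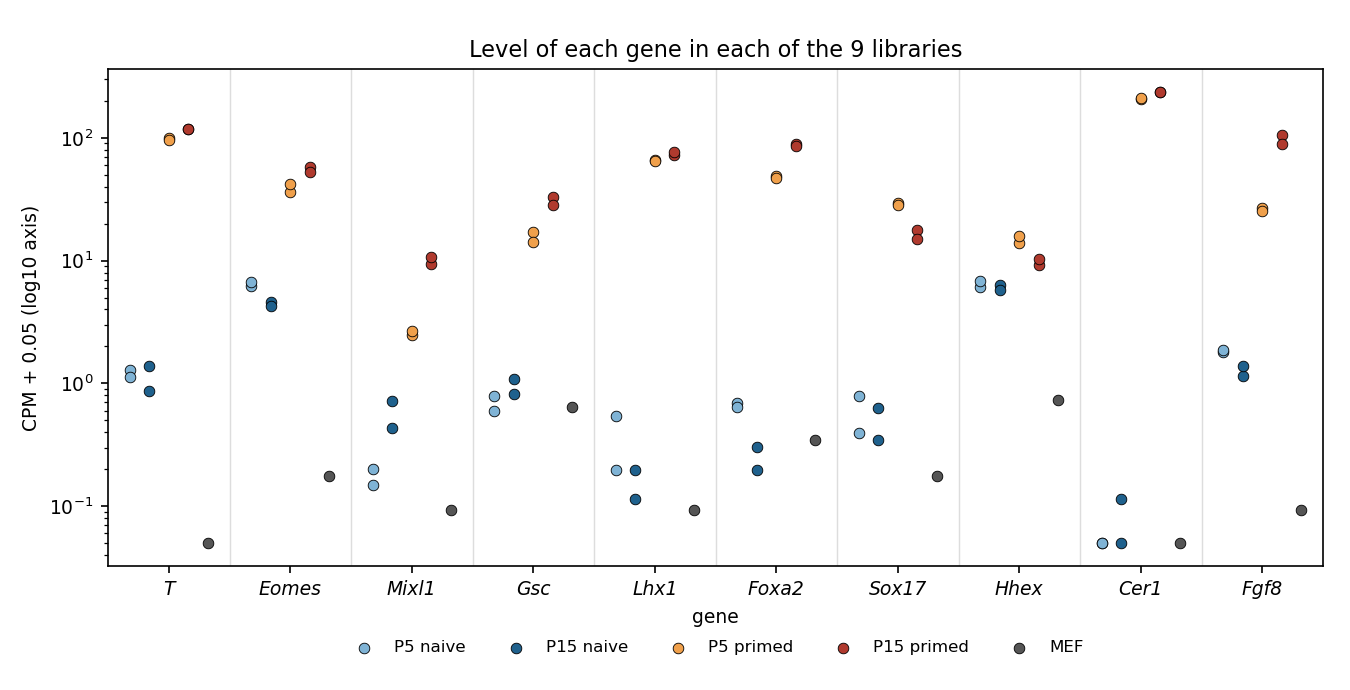
Level of each of the 10 genes in each of the 9 libraries, in CPM plus 0.05 on a log10 axis, with 1 point per library and colours for the 5 groups. Both primed groups lie above both naïve groups for every gene, with the narrowest gap for *Hhex*, and the MEF library lies at or below 0.680 CPM for all 10 genes.

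*T* is the founding T-box factor, made throughout the streak and needed for posterior mesoderm. It lies at chr17:8434423-8442496 on the plus strand. Its level was 1.24 and 1.09 CPM in naïve mESCs at P5, and 0.810 and 1.34 CPM at P15. In primed mEpiSCs it was 99.3 and 96.6 CPM at P5, and 117.4 and 117.1 CPM at P15. The primed libraries of a passage thus lay within a few CPM of each other and far above the naïve ones. The log2 difference was 6.42 ± 0.21 (SE, n = 2 per group) at P5, with an adjusted p of 7.46e-29 by edgeR. At P15 it was 6.72 ± 0.26, with an adjusted p of 8.68e-32.

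*Eomes*, the T-box factor that acts with Nodal signalling to specify definitive endoderm and anterior mesoderm, lies at chr9:118478212-118486132 on the plus strand. It was at 6.22 and 6.68 CPM in naïve mESCs at P5 and at 4.57 and 4.22 CPM at P15, and so was well detected before conversion. Primed mEpiSCs had 35.8 and 42.3 CPM at P5 and 57.7 and 52.4 CPM at P15. The difference from naïve mESCs was 2.63 ± 0.12 on the log2 scale at P5 (adjusted p = 4.79e-19 by edgeR) and 3.64 ± 0.15 at P15 (adjusted p = 1.35e-24). An antisense gene, Gm33460, overlaps *Eomes* by 574 bases and had at most 15 counts in a library. How strand was treated in the counting is not given in the sources used here.

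*Mixl1*, a homeobox factor of the streak that acts in mesendoderm, lies at chr1:180693043-180697034 on the minus strand. It had the fewest counts of the 10 genes in primed mEpiSCs at P5, 96 in all. Naïve mESCs had 0.149 and 0.0990 CPM at P5, from 5 counts in all, and 0.663 and 0.384 CPM at P15, from 15 counts. Primed mEpiSCs had 2.44 and 2.61 CPM at P5 and 9.30 and 10.6 CPM at P15. The groups did not overlap, and the P15 libraries were the highest in both states. The log2 difference between the states was 4.31 ± 0.72 at P5 (adjusted p = 1.02e-08 by edgeR) and 4.24 ± 0.41 at P15 (adjusted p = 5.19e-15).

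*Gsc* and *Lhx1* encode homeobox factors of the organizer, the anterior streak tissue that patterns the head. *Gsc* lies at chr12:104471209-104473330 and *Lhx1* at chr11:84518284-84525535, both on the minus strand. *Gsc* was at 0.547 and 0.742 CPM in naïve mESCs at P5 and at 1.03 and 0.767 CPM at P15. Primed mEpiSCs had 17.0 and 14.1 CPM at P5 and 32.7 and 28.6 CPM at P15, so that the late primed libraries stood above all others. The states differed by 4.62 ± 0.31 on the log2 scale at P5 (adjusted p = 1.37e-17 by edgeR) and by 5.08 ± 0.30 at P15 (adjusted p = 8.56e-23).

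*Lhx1* was at 0.497 and 0.148 CPM in naïve mESCs at P5, and at 0.147 and 0.0640 CPM at P15, where both libraries lay under the floor of 3 counts. In primed mEpiSCs it was at 66.0 and 65.2 CPM at P5 and at 72.6 and 77.1 CPM at P15. Primed levels were therefore tight between libraries, while the naïve level was set by a handful of counts. The log2 difference was 7.67 ± 0.40 at P5 (adjusted p = 3.19e-26 by edgeR). It rests on 13 naïve counts at P5, and was 8.73 without the first naïve library and 7.03 without the second. At P15 the naïve libraries held 3 counts together, and the primed to naïve ratio was 729 with a 95% counting interval of 249 to 3538. The neighbouring long noncoding RNA gene *Lhx1os*, which does not overlap *Lhx1*, had at most 2 counts in a naïve library, but 38 and 54 in the P5 primed libraries and 16 and 23 in those of P15.

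*Foxa2*, *Sox17* and *Hhex* encode transcription factors of the definitive and anterior endoderm. *Foxa2* (chr2:148042877-148046969, minus strand) marks the anterior streak, node and endoderm, and was at 0.646 and 0.594 CPM in naïve mESCs at P5 and at 0.147 and 0.256 CPM at P15. Primed mEpiSCs had 49.2 and 47.0 CPM at P5 and 89.1 and 86.4 CPM at P15. The 4 primed libraries formed pairs by passage, with the late pair higher. The log2 difference between the states was 6.30 ± 0.29 at P5 (adjusted p = 6.24e-25 by edgeR) and 8.67 ± 0.59 at P15 (adjusted p = 6e-31). The P15 value rests on 6 naïve counts, and ranged from 8.35 to 9.11 when 1 library was left out.

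*Sox17* (chr1:4490931-4497354, minus strand), a SOX factor needed for endoderm, was at 0.746 and 0.346 CPM in naïve mESCs at P5 and at 0.295 and 0.576 CPM at P15. In primed mEpiSCs it was at 29.2 and 28.3 CPM at P5 and at 17.6 and 14.997 CPM at P15. Unlike the genes above, the early primed libraries were the highest. The log2 difference between the states was 5.74 ± 0.32 at P5 (adjusted p = 1.99e-21 by edgeR) and 5.16 ± 0.43 at P15 (adjusted p = 7.69e-19). The P5 value rests on 22 naïve counts, and was 6.36 without the first naïve library and 5.27 without the second. A transcript on the other strand, Gm37587, overlaps *Sox17* by 804 bases and had at most 2 counts in a library.

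*Hhex* (chr19:37434810-37440731, plus strand), a homeobox factor of anterior endoderm and of blood and liver progenitors, showed the smallest difference between the states of the 10 genes. It was at 6.07 and 6.83 CPM in naïve mESCs at P5 and at 6.33 and 5.76 CPM at P15. Primed mEpiSCs had 13.9 and 15.8 CPM at P5 and 9.24 and 10.2 CPM at P15. The groups did not overlap at either passage, but the gap narrowed at P15. The log2 difference was 1.23 ± 0.13 at P5 (adjusted p = 1.9e-09 by edgeR), a call. At P15 it was 0.68 ± 0.17 (adjusted p = 0.00085), a 1.60-fold difference that fell short of the 2-fold limit.

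*Cer1* and *Fgf8* encode secreted proteins. *Cer1* (chr4:82881751-82885148, minus strand) makes Cerberus-like, an inhibitor of Nodal and BMP that is itself switched on by Nodal signalling in anterior endoderm. It had no count in either naïve library at P5 and 1 count in the 2 naïve libraries at P15. Primed mEpiSCs had 208.7 and 209.7 CPM at P5 and 237.9 and 236.7 CPM at P15, the highest CPM among the 10 genes in every primed library. At P5 its level in primed mEpiSCs was at least 1402-fold higher than in naïve mESCs, taken against the floor of 3 counts in the naïve library with the higher floor. At P15 the ratio was 6931, with a 95% counting interval of 1244 to 273784. The difference was called at both passages (adjusted p = 4.04e-32 and 2.16e-35 by edgeR).

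*Fgf8* (chr19:45736798-45742915, minus strand) makes the fibroblast growth factor that cells need to migrate away from the streak. Naïve mESCs had 1.74 and 1.83 CPM at P5 and 1.10 and 1.34 CPM at P15. Primed mEpiSCs had 26.8 and 25.3 CPM at P5, and 105.4 and 89.8 CPM at P15. The late primed libraries were thus apart from all other libraries. The states differed by 3.90 ± 0.18 on the log2 scale at P5 (adjusted p = 5.29e-20 by edgeR) and by 6.29 ± 0.25 at P15 (adjusted p = 6.67e-30).

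Counted over the set, 10 of 10 genes were called higher in primed mEpiSCs at P5, where 13.5% of the 16482 genes tested were called higher. At P15, 9 of 10 were called higher, all but *Hhex*, where 12.2% of 15733 genes were. The genes were chosen with earlier results known, so that these shares describe the set and do not test it. All 10 genes passed the filter on low values, which asks for 10 counts or more in 2 of the libraries fitted. *Mixl1*, *Sox17*, *Lhx1* and *Cer1* at P5, and these 4 and *Foxa2* at P15, passed it only through their primed libraries, so that for them a difference was a condition of being tested.

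**Figure D2:**
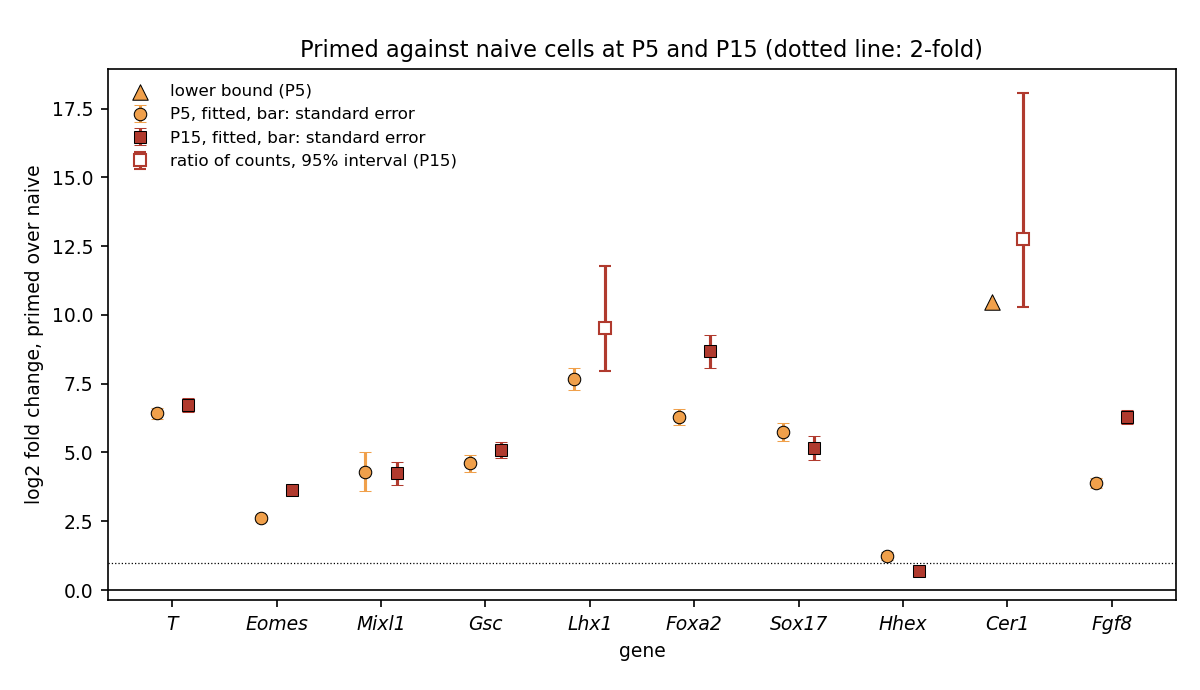
Difference between primed and naïve cells for each gene, as log2 fold change at P5 and P15, with bars of 1 standard error. The triangle is the lower bound for *Cer1* at P5, open squares are ratios of counts with 95% counting intervals for *Lhx1* and *Cer1* at P15, and only *Hhex* at P15 lies under the dotted 2-fold line.

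Among primed mEpiSCs, passage separated the genes into those higher late and those higher early. *Mixl1* and *Fgf8* rose from P5 to P15, *Sox17* and *Hhex* were lower at P15, and the other 6 genes were higher at P15 by less than 2-fold. The P5 and P15 libraries did not overlap for any of the 10 genes, and among all genes tested they did not overlap for 78.1%. *Mixl1* rose 3.86-fold (log2 1.95 ± 0.19, adjusted p = 7.68e-10 by edgeR) and *Fgf8* rose 3.66-fold (1.87 ± 0.08, adjusted p = 2.76e-17). These were 2 calls among 10 genes tested, where 3.18% of 15957 genes were called higher and 8.43% lower.

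The other genes passed the p threshold or not, but all were within 2-fold. *Gsc* came closest to a call, at 1.92-fold (log2 0.94 ± 0.10, adjusted p = 1.16e-08 by edgeR), and passed 2-fold without the first P5 primed library (1.06) or without the second P15 primed library (1.04). *Foxa2* was 1.78-fold higher at P15 (0.83 ± 0.06, adjusted p = 1.06e-11). *Eomes* was higher by 0.47 ± 0.08 and *T* by 0.23 ± 0.06 on the log2 scale, with adjusted p of 1.61e-05 and 0.000972. *Lhx1* (0.16 ± 0.06, adjusted p = 0.0299) and *Cer1* (0.15 ± 0.05, adjusted p = 0.0101) did not pass the p threshold. In the other direction, *Sox17* at P15 was 0.554 of its P5 level (log2 -0.85 ± 0.10, adjusted p = 2.95e-08) and *Hhex* 0.643 (-0.64 ± 0.13, adjusted p = 9.37e-05). When libraries were scaled by their size and not by TMM, the median of all genes moved by -0.13 on the log2 scale, and the direction of all 10 genes was as given here.

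In naïve mESCs, 6 of the 10 genes had enough counts to be tested between the passages, and edgeR called none, against 1.13% of 15683 genes called in either direction. At an unadjusted p under 0.05 there were 2, *Eomes* and *Foxa2*, and DESeq2's Wald test also called 0. *Eomes* had a log2 difference of -0.55 ± 0.18 (adjusted p = 0.0525) and *Foxa2* of -1.56 ± 0.71 (adjusted p = 0.118).

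The difference between primed and naïve cells was called larger at P15 for 3 of 10 genes, where 2.36% of 16926 genes were called in that direction and 4.8% in the other. *Fgf8* had the largest such change, of 2.41 ± 0.31 on the log2 scale (adjusted p = 1.51e-07 by edgeR), and *Foxa2* followed with 2.40 ± 0.66 (adjusted p = 0.000603). The change of *Eomes* was 1.03 ± 0.19 (adjusted p = 5.78e-05) and lay at the 2-fold limit, under which it came with library size alone (0.91) and without any 1 of 4 libraries. These were the second P5 naïve (0.99), the first P5 primed (0.88), the second P15 naïve (0.97) and the first P15 primed (0.96) library. For *Foxa2*, the value rests on 25 naïve counts at P5 and 6 at P15, besides the 1.78-fold higher primed level. The other 7 genes were not called, with values from -0.56 for *Sox17* to 1.75 for *Lhx1* among those with naïve counts in each group, and adjusted p from 0.0509 for *Hhex* to 0.945 for *Mixl1*. *Mixl1* was higher at P15 in both states, and its state difference changed by -0.04 ± 0.78.

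To compare levels between genes, CPM were divided by the exon length of each gene in kb. In primed mEpiSCs at P5, *Cer1* was first at 120.3 ± 0.406 CPM per kb (SD, n = 2) and *T* second at 42.3 ± 0.814. *Foxa2* (20.3 ± 0.645) and *Fgf8* (19.3 ± 0.779) came next and their libraries overlapped, so that they cannot be ordered. *Lhx1* at 16.1, *Gsc* at 12.3, *Eomes* at 9.40, *Sox17* at 6.03, *Hhex* at 2.93 and *Mixl1* at 1.10 CPM per kb followed without overlap between neighbours.

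At P15 the order was *Cer1* at 136.4 ± 0.486, *Fgf8* at 72.3 ± 8.14, *T* at 50.6 ± 0.0999 and *Foxa2* at 37.0 ± 0.792 CPM per kb. *Fgf8* had thus moved above *T*. *Gsc* at 24.1, *Lhx1* at 18.4, *Eomes* at 13.2, *Mixl1* at 4.34, *Sox17* at 3.42 and *Hhex* at 1.92 CPM per kb followed, and no neighbours in this order overlapped. *Gsc* had passed *Lhx1*, and *Mixl1* had passed both *Sox17* and *Hhex*. In naïve mESCs, the highest per length were *Eomes* (1.55 ± 0.0789 at P5 and 1.06 ± 0.0588 at P15), *Fgf8* (1.32 and 0.907) and *Hhex* (1.28 and 1.20).

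**Figure D3:**
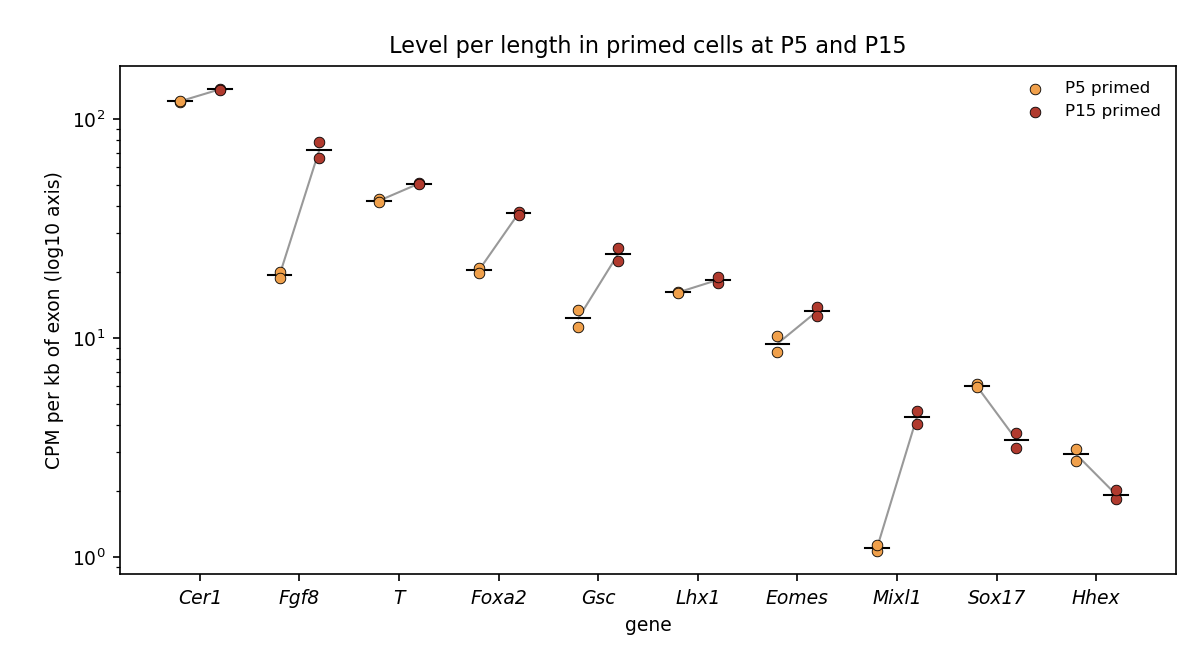
Level of the 10 genes in the 4 primed libraries, in CPM per kb of exon on a log10 axis, with a point per library, a bar at the mean of the 2 libraries of a passage and a line joining the means. *Fgf8* and *Mixl1* have the steepest rise, while *Sox17* and *Hhex* are lower at P15.

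Other genes of gastrulation were read from 3 lists. Inducing signals, the ligands, antagonists and nuclear factors of the Nodal, Wnt, BMP and FGF pathways, were split between the states. Of 18 tested at P5, 4 were called higher and 4 lower in primed mEpiSCs, where 13.5% and 8.85% of all genes were. Of 17 at P15, 5 were higher and 3 lower, where 12.2% and 11% of all genes were. Their median log2 difference was 0.29 at P5 and 0.43 at P15, against medians of 0.01 and 0.00 over all genes tested. *Lefty2*, an inhibitor of Nodal, was higher in primed mEpiSCs by 1.31 on the log2 scale at P5 and 1.72 at P15. *Fgf5*, the epiblast growth factor, was higher by 6.32 and 6.37. *Fgf4*, made by the preimplantation embryo, was lower, with log2 differences of -1.93 and -5.47, as was *Gdf3*, a ligand of the Nodal receptors, with -3.30 and -1.23. *Fgf5*, and *Otx2* below, are also on the list of primed markers.

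Among primed mEpiSCs, 5 of 17 inducing signals rose with passage and 1 fell, where 3.18% and 8.43% of all genes did. The gene that fell was *Fgf4*, from 39.9 and 43.8 CPM at P5 to 3.33 and 3.98 CPM at P15 (adjusted p = 4.38e-19 by edgeR). Of these 6, *Wnt3*, *Lefty1* and *Nodal* are named after their values were seen. *Wnt3*, the ligand that starts the streak, rose from 4.28 ± 1.89 to 27.5 ± 1.21 CPM (SD, n = 2; log2 2.63 ± 0.17, adjusted p = 4.99e-14 by edgeR). *Lefty1* rose from 199.2 to 861 CPM (2.08 ± 0.05, adjusted p = 1.67e-22), while naïve mESCs had 235 and 234 CPM of it at P5. *Nodal* itself rose from 30.4 to 62.5 CPM (1.01 ± 0.07, adjusted p = 6.66e-12), a fold of 2.01 that went under the 2-fold limit with DESeq2's size factors (log2 0.999), with library size alone (0.87) and without the second P5 (0.91) or the second P15 (0.98) library. Naïve mESCs had 74.6 CPM of *Nodal* at P5 and 59.8 CPM at P15.

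Genes of the streak and nascent mesoderm were mixed. At each passage 19 of 26 had enough counts, of which 7 were called higher and 3 lower in primed mEpiSCs at P5 and 8 higher and 4 lower at P15, with median log2 differences of 0.39 and 0.75. Over all genes, 13.5% and 8.85% were called higher and lower at P5, and 12.2% and 11% at P15. Of the 19 genes, 2 at P5 and 4 at P15 passed the filter only through primed libraries, so that a difference was a condition of testing them. They include *Aplnr* at both passages and *Cyp26a1* at P15. Of the other 17 and 15, 5 were called higher at each passage. *Cyp26a1*, which breaks down retinoic acid, was higher by 7.41 and 6.90 on the log2 scale. *Aplnr*, the apelin receptor of early mesoderm, had 2 naïve counts at each passage, and the ratios were 684 (95% counting interval 188.9 to 5652) at P5 and 221 (61.0 to 1833) at P15. The Notch ligand *Dll3* was higher by 1.03 and 2.31, the forkhead factor *Foxc1* by 1.75 and 1.38, and the Wnt agonist *Rspo3* by 1.91 and 2.40. The 1.03 of *Dll3* at P5 went under the 2-fold limit without the second naïve (0.96) or the first primed (0.96) library. Called lower at both passages were the growth factor *Fgf17*, with log2 differences of -2.65 and -2.32, the Notch ligand *Dll1*, with -2.94 and -3.34, and the caudal homeobox gene *Cdx1*, all named after their values were seen. *Cdx1* had 133 naïve and 7 primed counts at P5 (log2 -4.09, or -3.49 without the first primed and -4.91 without the second primed library) and 238 naïve and 1 primed count at P15. *Mesp1* and *Msgn1*, which mark mesoderm that has left the streak, had at most 7 and 4 counts in a naïve or primed library. *Foxc1* (65.5 CPM) and *Rspo3* (32.3 CPM) were higher in the MEF library than in primed mEpiSCs, and the list summed to 594.9 CPM in MEFs against 390.2 to 475.5 CPM in primed mEpiSCs.

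Among primed mEpiSCs, 2 of 18 streak genes rose with passage and 1 fell, where 3.18% and 8.43% of all genes did. The 2 were *Wnt8a*, a Wnt ligand of the streak, and *Nkx1-2*, a homeobox gene of its posterior part, and are named after their values were seen. *Wnt8a* rose from 2.36 ± 0.114 to 29.9 ± 1.47 CPM (log2 3.63 ± 0.17, adjusted p = 4.6e-18 by edgeR), and *Nkx1-2* by 3.22 ± 0.49 (adjusted p = 1.59e-07), or by 4.09 without the first P5 library. *Nkx1-2* had 9 and 3 counts in the P5 primed libraries and 56 and 51 in those of P15. It passed the filter only through the P15 libraries, so that a difference was a condition of testing it. *Aplnr* fell by 1.20 on the log2 scale (adjusted p = 2.25e-11).

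Genes of the node and anterior endoderm were the group with the most calls. Of 21 tested at P5 and 20 at P15, 18 were called higher in primed mEpiSCs at each passage, with median log2 differences of 2.95 and 2.59, where 13.5% and 12.2% of all genes were. Only through primed libraries did 3 of the 21 and 5 of the 20 pass the filter, so that a difference was a condition of testing them. Of the other 18 and 15, 15 and 14 were called higher. *Krt19*, a keratin of node and endoderm, was higher by 3.66 at P5 and 1.82 at P15, and *Otx2*, a homeobox factor of the epiblast and head, by 2.73 and 2.77. *Chrd*, the BMP inhibitor made by the organizer, was higher by 3.04 and 4.24, *Shh*, the ligand of node and notochord, by 8.65 and 6.80, and *Foxj1*, the factor for the motile cilia of the node, by 2.37 and 4.46. The naïve libraries held 6 counts of *Shh* at each passage, so that its fold is loosely set, and at P5 it was 7.92 without the first naïve library and 10.1 without the second. *Noto*, the homeobox gene of the node, is named after its values were seen, and had no naïve count. It was at least 21.6-fold higher in primed mEpiSCs at P5 and at least 38.0-fold higher at P15, against the floor of 3 counts in the naïve library with the higher floor.

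With passage this list split in primed mEpiSCs, with 5 of 21 genes called higher and 11 lower at P15, where 3.18% and 8.43% of all genes were, and a median of -1.003 against 0.00 over all genes. *Foxa3* and *Pyy* passed that filter only through P5 libraries. The sum of the list rose, from 1282 to 1290 CPM at P5 to 2258 to 2267 CPM at P15. Its most abundant gene, *Trh*, was at 406 and 422 CPM at P5 and at 1720 and 1717 CPM at P15. The rise of *Trh* was larger than that of the sum, so that the other genes of the list together were lower at P15. *Chrd* rose by 1.15 ± 0.07 and *Foxj1* by 1.36 ± 0.08 on the log2 scale (adjusted p = 1.62e-13 and 4.34e-14 by edgeR). *Noto* rose by 1.35 ± 0.19 (adjusted p = 7.46e-07). *Krt19* fell by 2.20, *Otx2* by 1.08 and *Shh* by 1.38 (adjusted p = 6.89e-22, 2.54e-15 and 1.08e-14). *Gata4*, *Hesx1* and *Sfrp5*, which are active in anterior or extraembryonic endoderm and are named after their values were seen, fell by 2.41, 2.30 and 2.93 (adjusted p = 4.46e-16, 8.7e-14 and 5.47e-17). *Sox17* and *Hhex* were also lower at P15, by less than 2-fold, and *Foxa2* was higher. Other genes of the list did not fall as *Gata4*, *Hesx1* and *Sfrp5* did. *Apela* was at 33.3 and 28.3 CPM at P5 and at 88.1 and 92.9 CPM at P15. *Frzb* was at 24.1 and 27.1 CPM, then at 34.1 and 33.9 CPM. *Foxa1* went from 21.4 and 18.5 CPM to 19.9 and 18.3 CPM, and *Gata6* from 24.5 and 24.2 CPM to 18.5 and 18.1 CPM.

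**Figure D4:**
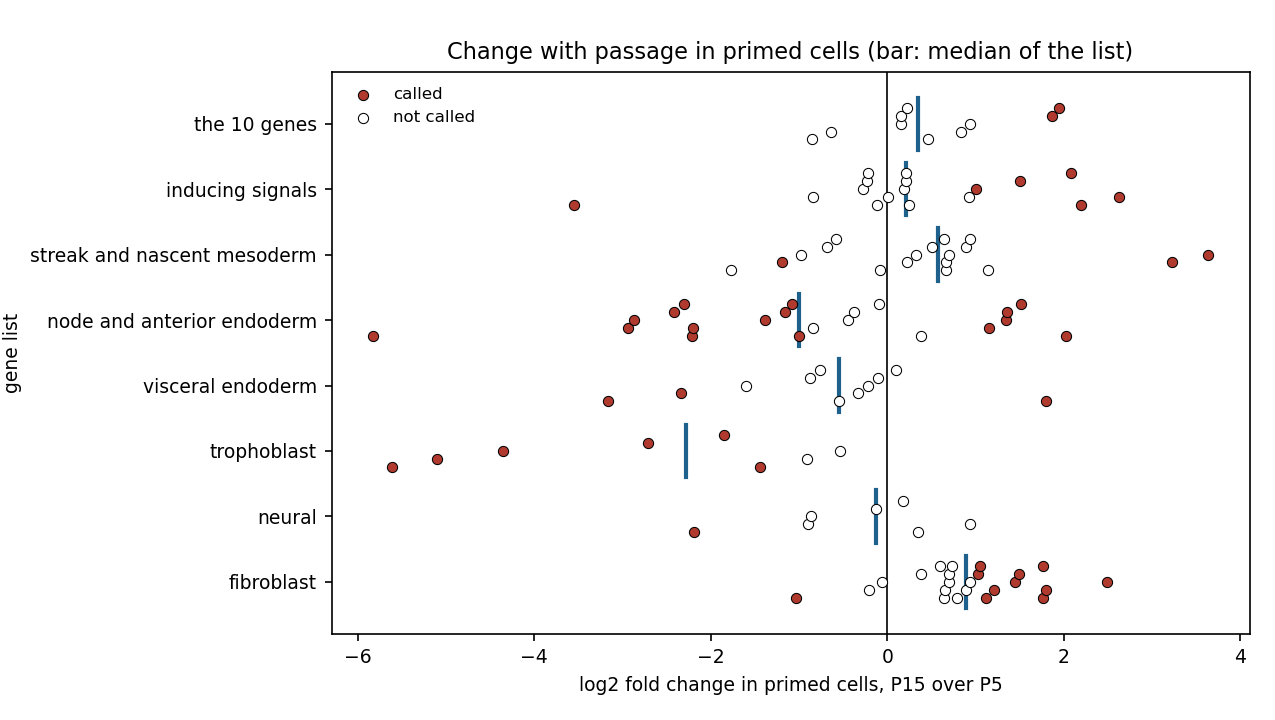
Change from P5 to P15 in primed cells for the 10 genes, the 3 lists of gastrulation genes and 4 lists of markers of other cells, with 1 point per gene tested, filled where the gene was called, and a bar at the median of the list. The node and anterior endoderm and the trophoblast lists lie mostly to the left, with medians of -1.003 and -2.28, and the fibroblast list lies to the right with a median of 0.89.

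Markers of other cells were read in the same libraries. Visceral endoderm, which shares *Foxa2*, *Sox17*, *Hhex*, *Cer1*, *Eomes* and *Lhx1* with the streak derivatives, had 15 markers. Their sum was 120.8 to 130.5 CPM in naïve mESCs at P5 and 88.1 to 89.9 CPM at P15. It was 347 to 349 CPM in primed mEpiSCs at P5 and 146.8 to 150.7 CPM at P15. Of the shared genes, *Sox17* and *Hhex* were lower at P15 in primed mEpiSCs, and *Foxa2*, *Cer1*, *Eomes* and *Lhx1* were higher. Of 11 markers tested with passage in primed mEpiSCs, 1 was called higher and 2 lower, where 3.18% and 8.43% of all genes were. The most abundant were *Lrp2*, *Dab2* and *Sox7*. Most of the fall in the sum was that of *Lrp2*, at 216 and 207 CPM in primed mEpiSCs at P5 and 40.7 and 44.7 CPM at P15. *Lrp2* fell by 2.34 on the log2 scale with passage in primed mEpiSCs (adjusted p = 1.03e-21 by edgeR). *Afp*, *Ttr* and *Apoa4*, serum protein genes of this tissue, had at most 2 counts in any naïve or primed library, and *Apoc2* had 0 in all 8. Other genes of this tissue were detected, some higher in naïve and some in primed mEpiSCs. At P5 *Cubn* had 255 and 270 naïve and 19 and 8 primed counts. *Apoa2* had 209 and 239 naïve and 32 and 26 primed counts, and *Amn* 56 and 56 naïve and 25 and 24 primed counts. The apolipoprotein gene *Apoa1* had 1 naïve and 30 primed counts at P15, a ratio of 25.0 (95% counting interval 4.16 to 1021). It was the marker called higher with passage in primed mEpiSCs (adjusted p = 0.00775 by edgeR). That call rests on 3 and 6 counts at P5 and 15 in each library at P15. With library size alone it was not called (adjusted p = 0.0136). *Hnf4a*, a nuclear receptor of endoderm, was higher in primed mEpiSCs by 3.68 on the log2 scale at P5 (adjusted p = 8.39e-10 by edgeR), and had 2 naïve and 15 primed counts at P15, a ratio of 6.25 (1.45 to 56.4). It fell by 3.17 with passage in primed mEpiSCs (adjusted p = 2.67e-08). *Hnf4a* had 7 and 5 naïve and 67 and 78 primed counts at P5, and 9 and 6 primed counts at P15. In both tests it passed the filter only through the P5 primed libraries, so that a difference was a condition of testing it. *Afp*, *Ttr*, *Apoa4*, *Cubn*, *Apoa2*, *Amn*, *Apoa1* and *Hnf4a* were named after their values were seen. At P5, 5 of 10 tested were called higher and 3 lower in primed mEpiSCs, where 13.5% and 8.85% of all genes were. At P15 4 of 9 were higher and 1 lower, where 12.2% and 11% of all genes were. *Hnf4a* at P5 and *Apoa1* at P15 passed the filter only through primed libraries. Of the other 9 and 8, 4 and 3 were called higher. The part of visceral endoderm in these levels was not tested.

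Fibroblast markers, of which 23 were listed, had a higher sum at P15 in both states. Their sum, as a share of that in the MEF library, was 12.2% in naïve mESCs at P5 and 20.2% to 21.2% at P15, and 7.52% to 7.69% in primed mEpiSCs at P5 and 18.1% to 18.9% at P15. *Col1a1*, *Col1a2* and *Bgn* were the most abundant. In primed mEpiSCs 10 of 23 were called higher and 1 lower at P15 than at P5, where 3.18% and 8.43% of all genes were. In naïve mESCs 4 of 23 were higher and 1 lower, where 1.13% of all genes were called in either direction. Single markers differed from the sum. In the P15 primed libraries *Dcn* was at 720 and 749 CPM against 211 CPM in MEFs, and *Acta2* at 122 and 114 CPM against 4554 CPM. The share of MEFs in these libraries was not tested. MEFs themselves had no count of *T* or *Cer1*, 1 count each of *Mixl1*, *Lhx1* and *Fgf8*, 3 each of *Eomes* and *Sox17*, and 0.298 CPM of *Foxa2*, 0.595 CPM of *Gsc* and 0.680 CPM of *Hhex*. The sum of the 10 genes in MEFs was 1.96 CPM, lower than in any naïve or primed library.

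Trophoblast markers (12 listed, led by *Tfap2c*, *Krt7* and *Rhox9*) summed to 86.5 to 94.5 CPM in naïve mESCs, 72.7 to 73.3 CPM in primed mEpiSCs at P5 and 30.1 to 31.2 CPM at P15. With passage in primed mEpiSCs, 6 of 8 tested fell, where 8.43% of all genes did. *Esx1*, *Hand1*, *Rhox6* and *Rhox9* had at most 4 counts in a P15 primed library, and passed that filter only through P5 libraries. Against naïve mESCs 2 of 9 were higher and 2 lower at P5, where 13.5% and 8.85% of all genes were. At P15 5 of 9 were lower, where 11% of all genes were. Neural markers (10 listed, led by *Nes*, *Sox1* and *Zic1*) summed to 121.9 to 166.3 CPM in naïve mESCs and 236.7 to 300.7 CPM in primed mEpiSCs. Of 9 tested at P5 and 8 at P15, 4 were called higher and 2 lower in primed mEpiSCs at each passage. Over all genes, 13.5% and 8.85% were called higher and lower at P5, and 12.2% and 11% at P15. Only through primed libraries did 3 of the 9 and 2 of the 8 pass the filter. Of the other 6 at each passage, 2 were called higher. With passage in primed mEpiSCs, 1 of 7 was called lower at P15, where 8.43% of all genes were. Naïve markers, at 2123 to 2562 CPM in naïve mESCs, summed to 241.2 to 242.6 CPM in primed mEpiSCs at P5 and 113.0 to 115.6 CPM at P15. Their part in the levels of the 10 genes was not tested.

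The genes most like *Cer1* and *Fgf8* were found by the Pearson correlation of log2(CPM + 1) over the 8 naïve and primed libraries, among 10779 genes with a mean of at least 10 CPM in a group. The libraries fall into 2 states, so that many genes correlate highly, and 143 genes exceeded 0.99 for *Cer1* and 106 for *Fgf8*. Nearest to *Cer1* were *Fgf5* (r = 0.9998), *A4galt* (0.9994) and *T* (0.9994). *Fgf5* had 1.54 and 1.72 CPM in naïve mESCs at P5 and P15 and 120.5 and 142.9 CPM in primed mEpiSCs, and *A4galt*, a glycosyltransferase gene, 18.3, 18.6, 47.5 and 48.2 CPM in the same order. Nearest to *Fgf8* were *Ctsb*, a lysosomal protease gene (r = 0.9991), *Agpat3*, a phospholipid synthesis gene (0.9991), and *Shb*, an adaptor protein gene (0.9986). *Ctsb* had 451.3 and 406.6 CPM in naïve mESCs at P5 and P15 and 891 and 1329 CPM in primed mEpiSCs, and so shared with *Fgf8* the higher level late in primed mEpiSCs.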

How the data were processed

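RNA-seq counts of 9 libraries (2 per state and passage, and 1 of MEFs) were grouped by the sample titles. The early and late columns of the count table were read as P5 and P15 from the study design. The deposited values are raw counts per gene, which the authors made by trimming reads with Cutadapt, aligning them to mm10 with HISAT2 and counting them with featureCounts on an Ensembl annotation. The handling of strand and of reads with several alignments in the counting is not given in the sources used here. The 92 spike-in rows, with 0 counts, were not used. Of 54232 gene IDs, 54165 were named from GENCODE M21, which also gave coordinates (GRCm38) and exon lengths. All 10 genes were matched by symbol.

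Computations used R 4.3.3, edgeR 4.0.16, limma 3.58.1 and DESeq2 1.42.0. Each comparison was fitted by edgeR's quasi-likelihood test on the libraries it names, scaled by TMM, for genes that reach 10 counts in 2 or more of them, and the change between passages in the state difference as an interaction in a fit of the 8 libraries. The MEF library entered no fit. With 2 libraries per group, an exact permutation test cannot give a p below 0.333, so none was run. The SE of a log2 fold change came from the curvature of the fitted model with its quasi-likelihood dispersion, and was never set below the counting error. Folds on 0 naïve counts are bounds against 3 counts, and on 1 to 3 naïve counts ratios with exact 95% intervals, which cover counting error only. Code was tested on simulated data.

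The genes and lists were chosen with earlier results of these data known. Named were all 10 genes, up to 5 genes per gastrulation list with the largest mean CPM in primed mEpiSCs among those called alike at both passages, the 3 most abundant genes per marker list and those at 0 in all 8 libraries, and the 3 genes most like *Cer1* (highest level) and *Fgf8* (largest interaction). A gene that this rule names on the list of inducing signals is not reported here. Others are said to be named after their values were seen, as were *Mesp1*, *Msgn1*, *Afp*, *Ttr*, *Apoa4*, *Apoa1* and *Hnf4a*. The same holds for *Trh*, *Foxa3*, *Pyy*, *Dcn*, *Acta2*, *Esx1*, *Hand1* and *Rhox6*, and for *Cubn*, *Apoa2*, *Amn*, *Dnmt3b*, *Apela*, *Frzb*, *Foxa1* and *Gata6*. Alternatives were DESeq2's Wald test, scaling by DESeq2's size factors or by library size alone, no filter on low counts, a fit of all 8 libraries, a replicate block and each library left out in turn. Leaving out libraries with the genes of the full fit, and a block of crossed pairs, were added after seeing the data.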

Additional observations from a re-analysis of the deposited data

Results flagged for a closer look

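For 3 genes the difference between primed and naïve cells changed between the passages by the test of the interaction itself. *Fgf8* had a change of 2.41 on the log2 scale (adjusted p = 1.51e-07 by edgeR), with a range of 2.28 to 2.56 over the alternatives. *Foxa2* had a change of 2.40 (adjusted p = 0.000603, up to 0.00942 over the alternatives), with naïve levels of 0.620 ± 0.0373 CPM at P5 and 0.202 ± 0.0767 CPM at P15 (SD, n = 2). *Eomes* had a change of 1.03 (adjusted p = 5.78e-05), with a range of 0.88 to 1.13, so that it lay on either side of the 2-fold limit. In each of the 3, the primed level was higher and the mean naïve level lower at P15, and none of them was called between the passages in naïve mESCs.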

How the results depend on the processing

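In the comparisons of the states at P5 and P15, the 10 genes kept their direction and their call, or lack of a call, under each alternative that tested them. At P15 no alternative called *Hhex*, with adjusted p from 0.000264 to 0.0178. Without 1 library the filter tests fewer genes: at P15 the genes called lower numbered 1155 to 1591 (1734 in full), and of the 10 genes 4 to 9 were called higher, with 4 without either primed library and 9 in each case with the genes of the full fit. In primed mEpiSCs the genes lower at P15 numbered 887 to 1295 (1345 in full). In naïve mESCs, 43 genes were higher at P15 with no low-count filter and 65 with it, with 27381 and 15683 genes tested. Directions that turned were all of values not called. With 1 library left out, the interaction of *Mixl1* ranged from -0.40 to 0.38, that of *Sox17* from -1.20 to 0.027 and that of *Cer1* from -3.23 to 0.15, and the difference of *T* between naïve passages from -0.51 to 0.20. With the genes of the full fit the turned values were 0.22, 0.38 and 0.056 for *Mixl1*, 0.028 for *Sox17*, 0.15 for *Cer1* and 0.20 for *T*. *Mixl1* turned without the second P5 naïve, the first P15 naïve or the first P15 primed library, *Sox17* and *Cer1* without the second P15 naïve and *T* without the first P15 naïve library. The state difference at P15 ranged from -0.052 to 0.11 for *Nodal* and from -0.0025 to 0.14 for *Lrp2* (turned values -0.029 and -0.024 with the genes of the full fit). Same-numbered libraries did not deviate together between the states (r = -0.155 at P5 and -0.214 at P15), and did weakly between passages (0.183 in primed and 0.196 in naïve cells), with no label of a shared batch. A replicate block gave 3663 calls at P5, 3369 at P15, 1164 for the interaction, 1923 in primed and 229 in naïve mESCs between passages, against 3680, 3646, 1212, 1853 and 178 without it, and changed no call of the 10 genes. With crossed pairs there were 3691 calls at P5 and 3647 at P15. Scaling by library size alone moved the median of all genes by 0.21 at P5, 0.10 at P15 and -0.11 in the interaction, and turned no direction of the 10 genes. Depth limits the naïve levels of *Lhx1*, *Cer1*, *Mixl1*, *Foxa2* and *Sox17*, which rest on 25 counts or fewer in a group.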
